A study of Epimedium pubescens with 12 samples.

Results

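aqc-miR399 is the member of the miR399 family in a table of miRNA counts from the leaves of a medicinal herb in the barberry family, Epimedium pubescens. It was chosen by name, as 1 row of the 220 miRNAs in the table, with earlier results of these data known. The study had already reported miR399 as upregulated after 90 days without phosphate. Seedlings rooted in sand received a solution without inorganic phosphate (0 mmol/L, -P) or with 1 mmol/L of it (+P), and leaves were collected early, on day 30 (30d), or late, on day 90 (90d). The 4 groups, 30d -P, 30d +P, 90d -P and 90d +P, each had 3 libraries with the replicate letters A, B and C, and all groups shared the same light and temperature. The study grew several seedlings for each replication, but the labels do not say which plants went into a library. The study's recipe for the solutions also differs between -P and +P in the salts that carry potassium, sodium, nitrate and sulfate, so phosphate and these ions cannot be told apart. The table holds miRNAs alone and no mRNA that marks leaf tissue, so the labelled tissue was not checked.

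miR399 is the best-known miRNA of the plant response to phosphate starvation. In Arabidopsis, the transcription factor PHR1 switches on MIR399 genes when phosphate runs low. The mature miRNA then represses PHO2, an E2 ubiquitin-conjugating enzyme that marks phosphate exporters and transporters for breakdown, and it also moves from shoot to root through the phloem. The RNA IPS1 binds miR399 as a target mimic and holds it back. The prefix aqc refers to Aquilegia coerulea, the columbine whose entry gave the name, and the sources used here do not say whether several E. pubescens miR399 genes feed this 1 row.

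The table held 11526632 counts, and a library held between 380316 and 1466897. One count was therefore worth between 0.682 and 2.63 TPM (the count scaled to 1000000 miRNA counts of that library, with no term for length). On the first principal component of the tested miRNAs the replicate C libraries of both 30d groups lay at 3.30 and 0.155, whereas the other 30d libraries lay between -14.1 and -9.63 and all 90d libraries between 2.17 and 12.3. The comparisons of aqc-miR399 were therefore run with and without both. In bulk leaf libraries fewer cells of a type and less RNA per cell cannot be told apart.

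aqc-miR399 was a scarce miRNA that was read in all libraries of 30d -P, 30d +P and 90d -P and in none of 90d +P. It was read 134 times in 12 libraries, which was 0.00116% of all counts, and 71.6% of those reads came from 90d -P. In 90d -P it had 33, 27 and 36 counts in replicates A, B and C, which was 22.8, 20.5 and 35.2 TPM. In 30d -P it had 5, 15 and 3 counts, or 9.38, 19.6 and 4.27 TPM. In 30d +P it had 2, 3 and 10 counts, or 3.48, 7.89 and 6.82 TPM. In TPM the 90d -P libraries were thus the 3 highest of the 12, and replicate B of 30d -P came close below them.

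All 3 libraries of 90d +P had 0 counts. Taking 3 counts as the limit that a count of 0 allows, their levels were at most 2.50, 2.48 and 3.31 TPM in replicates A, B and C. The lowest level in any other library was 3.48 TPM, which was 2 counts in 30d +P replicate A. Its exact 95% interval, 0.422 to 12.6 TPM, overlapped those of the 90d +P libraries. Their exact upper limits were 3.07, 3.05 and 4.07 TPM. Over the group, 3 counts in 3319208 gave a limit of 0.904 TPM. These limits, and the exact Clopper-Pearson 95% intervals used here, cover counting error only.

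**Figure D1:**
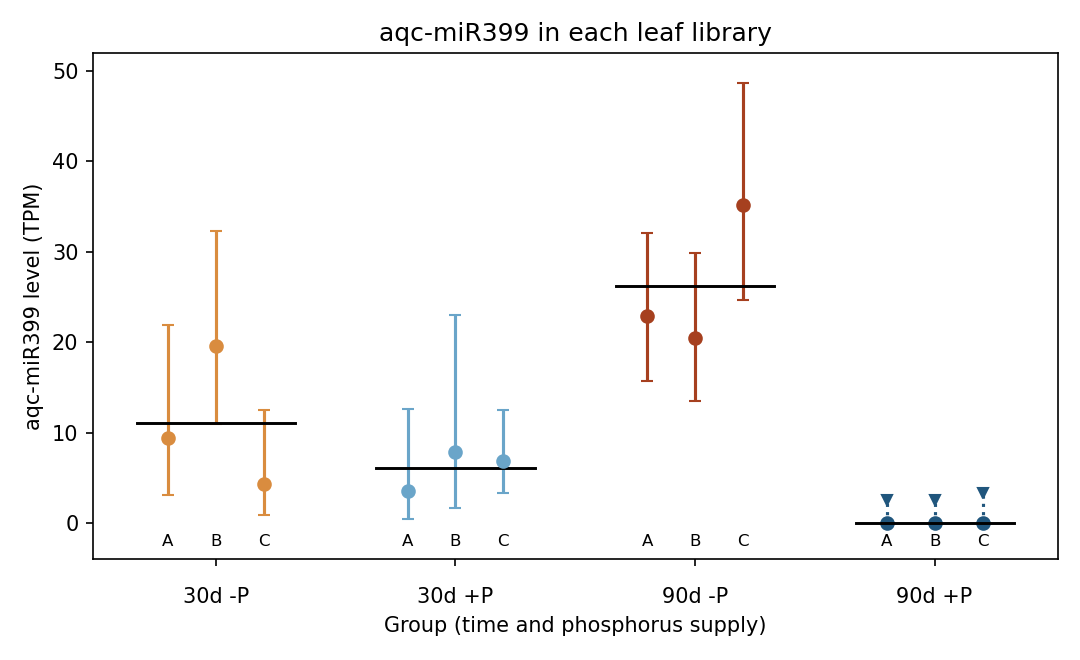
The level of aqc-miR399 in each library in TPM, by group and replicate letter, with exact 95% counting intervals, a horizontal line at each group mean and, for the libraries at 0 counts, a triangle at the limit that 3 counts give. The 90d -P libraries sit between 20.5 and 35.2 TPM, the 30d libraries between 3.48 and 19.6 TPM, and the 90d +P libraries at 0.

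The group means fell in the order 90d -P, 30d -P, 30d +P and 90d +P. In 90d -P the mean was 26.2 ± 7.90 TPM (SD, n = 3). It was 11.1 ± 7.79 TPM (SD, n = 3) for 30d -P, and for 30d +P it was 6.06 ± 2.30 TPM (SD, n = 3). The spread between replicates was widest in 30d -P, with a coefficient of variation of 70.4%, against 37.9% in 30d +P and 30.2% in 90d -P. The SD that counting alone would give was about 4.05 TPM for 30d -P, 3.24 TPM for 30d +P and 4.68 TPM for 90d -P. The replicate SD was above that figure in both -P groups and below it in 30d +P, a difference that was not tested. Replicate B of 30d -P held 15 of the 23 counts of its group, and the exact interval of each library in this group overlapped that of the others.

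The rank of aqc-miR399 among the miRNAs of a library also differed between the groups. In 90d -P it stood near the middle of the list, at position 81 of 162 detected miRNAs, 87 of 165 and 79 of 165 (replicates A, B and C). In 30d -P it stood at 124 of 161, 95 of 163 and 119 of 146, and in 30d +P at 154 of 179, 121 of 158 and 117 of 170. Of the miRNAs with an aqc name, between 10 and 12 were read more often in a 90d -P library. A rank at 30d rests on few counts and is shared by up to 11 miRNAs in 30d +P replicate A.

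By mean level over the 12 libraries aqc-miR399 was 124th of 220 miRNAs and 15th of the 22 with an aqc name. Its neighbours were novel_227 and aqc-miR172a just above and novel_211 and novel_149 just below, with means of 11.6, 11.1, 10.3 and 10.3 TPM against 10.8 TPM. miR172, which targets AP2-like flowering regulators, had its highest group mean in 30d +P, 30.2 ± 40.2 TPM (SD, n = 3), and had 1.11 ± 1.01 TPM (SD, n = 3) as its mean in 90d -P. The mean of novel_149 was 18.4 ± 5.10 TPM (SD, n = 3) in 90d -P, whereas 90d +P had 8.39 ± 6.65 TPM (SD, n = 3). None of these 4 neighbours had its group means in the order found for aqc-miR399.

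How leaves responded to prolonged phosphorus deficiency was asked at 90d. aqc-miR399 was upregulated in 90d -P. Its pooled level of 25.4 TPM (95% interval 20.5 to 31.0) was at least 28.1-fold higher than in 90d +P when that group is set at its limit of 3 counts and the pooled level is taken as measured. With counting error in both groups, the exact 95% lower limit of the ratio was 22.4. edgeR's quasi-likelihood test across 137 miRNAs gave an unadjusted p of 0.000338, the smallest of all, and a Benjamini-Hochberg adjusted p of 0.0243. In the same test 3 miRNAs, or 2.19%, were called, and the others were novel_36 and novel_73. The groups did not overlap, which was also true, in the same direction, of 16.1% of the tested miRNAs.

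This call was lost with the replicate letter as a block (adjusted p 0.0568), with edgeR on the 6 libraries of 90d (0.0963) and without any 1 of 5 of those libraries. With edgeR on 11 libraries the adjusted p was 0.144 when replicate A of 90d +P was left out, 0.0881 for its replicate B and 0.0928 for its replicate C. It was 0.0671 when 90d -P lost replicate A, 0.0654 when it lost C and 0.0238 when it lost B. Without both C libraries of 30d it was 0.0253, and over all alternatives it ranged from 4.29e-05 to 0.144. Over 26 alternatives aqc-miR399 stood between position 1 and 5 by unadjusted p, and at position 1 in 19 of them. It passed the filter on low counts through 90d -P, since of the 4 libraries at or over the filter's limit (10.4 CPM) 3 were of that group and 1 was 30d -P replicate B.

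The early stage, before visible damage, was addressed at 30d, where the groups overlapped. The level was higher under -P in replicates A and B, by 5.90 and 11.7 TPM, and lower in replicate C, with a difference of -2.54 TPM. On the log2 scale the fold change came to 1.13 (SE 1.02, adjusted p = 0.986 in edgeR), and the pooled levels of 11.5 and 6.19 TPM had a ratio of 1.86 with a 95% counting interval of 0.927 to 3.82. Of the single libraries, replicate B of 30d -P moved the log2 fold change most, to 0.22 when it was left out. Leaving out any other single library gave between 1.06 and 1.44. Leaving out both C libraries of 30d gave 1.82. Under the adjusted threshold 0% of miRNAs were called with edgeR, DESeq2 or limma, 3.65% had an unadjusted p under 0.05 in edgeR, and 4.38% had groups that did not overlap.

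Time was compared within each phosphorus supply. Under -P, all 90d libraries lay above all 30d libraries in TPM. The closest were 20.5 TPM in 90d -P replicate B and 19.6 TPM in 30d -P replicate B. With the TMM scaling used in edgeR these replicate B libraries changed order, at 23.0 CPM in 90d -P and 24.7 CPM in 30d -P. The pooled level was 2.21-fold higher at 90d (95% counting interval 1.39 to 3.65) and the log2 fold change was 1.22 (SE 0.99; adjusted p 0.685 in edgeR), so the difference did not pass the threshold. Groups that did not overlap in TPM in this direction made up 13.9% of the tested miRNAs. Single libraries moved the log2 fold change, to 0.71 when 90d -P lost replicate C, to 0.78 when 30d -P lost replicate C or both 30d groups did, and to 1.98 when 30d -P lost replicate B. edgeR called 0% of miRNAs and gave 8.03% an unadjusted p under 0.05, whereas DESeq2 called 1 miRNA on 12 libraries and 8 on the 6 libraries compared, and limma 0.

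Under +P, aqc-miR399 was read in all 30d libraries and in no 90d library. The pooled level at 30d was at least 6.85-fold higher against the limit at 90d, with 4.92 as the exact lower limit for counting error in both groups. At that 30d level, 7.44, 7.49 and 5.62 counts would have been read in the A, B and C libraries of 90d +P, given their totals. edgeR's quasi-likelihood test gave an unadjusted p of 0.00485, second of 137, and an adjusted p of 0.134, so no call was made. DESeq2 on 12 libraries did call it, with an adjusted p of 0.0186, and over all alternatives the adjusted p ranged from 0.0186 to 0.244. At this comparison edgeR called 0% of miRNAs and gave 26.3% an unadjusted p under 0.05, DESeq2 called 31 on 12 libraries and 12 on 6, the newer edgeR method 19, and limma 0. The groups did not overlap in this direction for 21.2% of the tested miRNAs.

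Comparisons across both factors completed the order of the 4 levels. 30d -P was at least 12.7-fold higher than 90d +P against the same limit, with 9.53 as the exact lower limit for counting error in both groups. edgeR put the adjusted p at 0.0453 and called 3.65% of miRNAs, which were aqc-miR399, novel_36, novel_51 and novel_73 (higher in 30d -P) and novel_79 (lower). Non-overlap in this direction was seen for 12.4%. The call of aqc-miR399 was lost when 30d -P lost replicate B (adjusted p 0.0965 in edgeR) or C (0.0695), when 90d -P lost A (0.0570), and when 90d +P lost A (0.134), B (0.104) or C (0.0818), and was kept without both C libraries of 30d (0.0325). It was also lost with the newer edgeR method (0.0997), with the replicate letter as a block (0.0829) and with limma on log2(TPM + 10) (0.171). 90d -P was 4.10-fold higher than 30d +P in pooled level, with a counting interval of 2.36 to 7.60, and its log2 fold change of 2.35 (SE 1.03) had an adjusted p of 0.279 in edgeR. For that comparison edgeR called 0% of miRNAs, 15.3% had an unadjusted p under 0.05, DESeq2 called 12 on either set of libraries, limma called 0, and 9.49% did not overlap in this direction. Neighbours in the order of levels therefore did not differ past the threshold in edgeR, and 90d +P differed past it from both -P groups. An exact permutation test of TPM gave 0.4 for the phosphorus comparison at 30d and 0.1 for each of the other 5 pairs, the smallest p that 3 libraries against 3 allow (0.12 adjusted over 6).

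Over both times together, aqc-miR399 was higher under -P. For the mean of the 30d and 90d effects edgeR gave an adjusted p of 0.0175, and 4.38% of miRNAs were called. The mean difference in TPM, -P minus +P, was 15.6 TPM, made up of 5.01 TPM at 30d and 26.2 TPM at 90d. An exact two-sided permutation test of this value, with libraries exchanged within each time, gave a p of 0.02 over 400 assignments, where the smallest p possible was 0.005. In 5 of the 6 same-letter comparisons over both times the -P library was above the +P library. At 90d any pairing gives this, since no +P library had a count. The adjusted p in edgeR was 0.0523 when 90d +P lost replicate A and 0.0292 when both C libraries of 30d were left out.

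**Figure D2:**
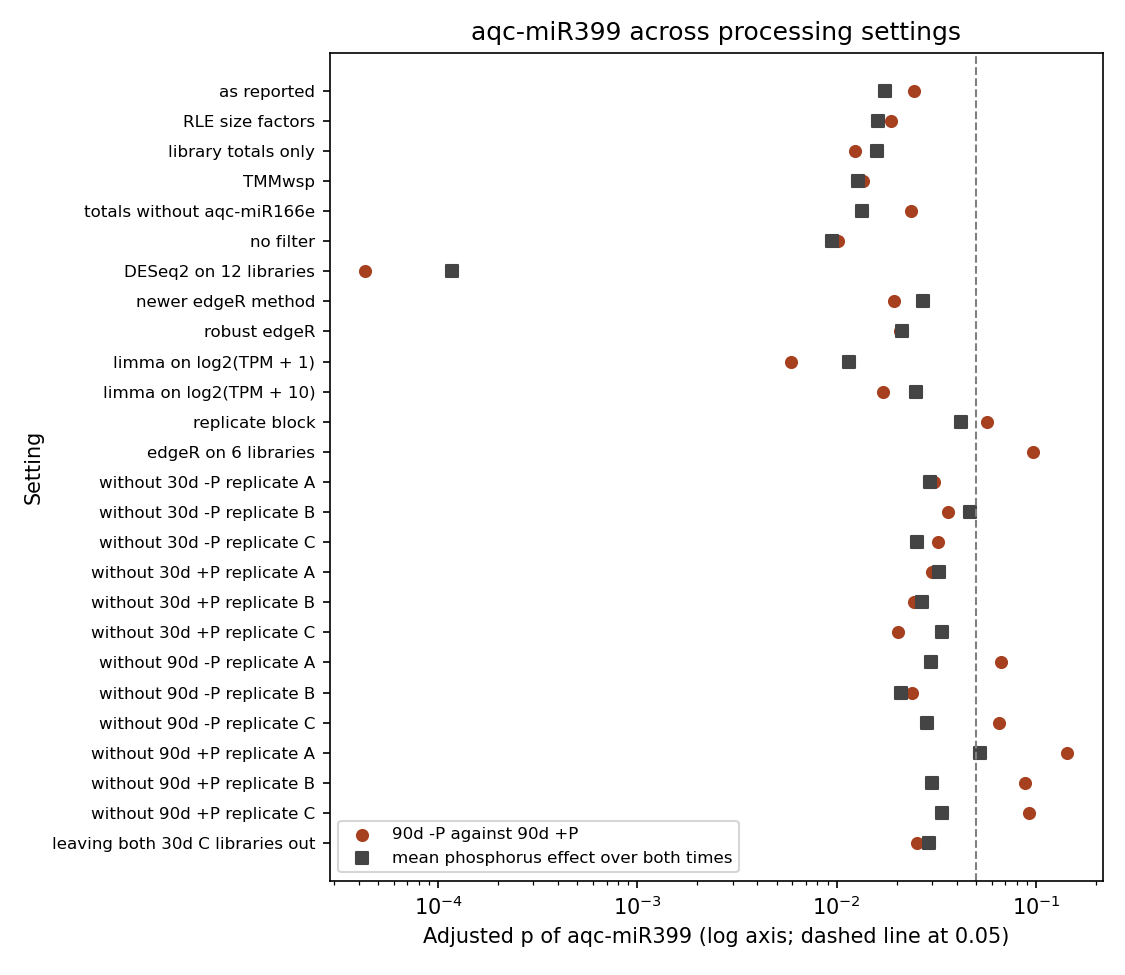
The adjusted p of aqc-miR399 on a log axis under each processing setting, as circles for 90d -P against 90d +P and squares for the mean phosphorus effect over both times, with a dashed line at 0.05. As reported they are 0.0243 and 0.0175, and the circles to the right of the line include all settings that leave out a 90d +P library.

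Whether the phosphorus effect differed between the times was tested by the interaction. aqc-miR399 had the smallest unadjusted p of 137 miRNAs, 0.00387, which edgeR adjusted to 0.530. edgeR called 0% of miRNAs, as did DESeq2 and limma, and 5.11% had an unadjusted p under 0.05. The fitted difference of 6.52 on the log2 scale depends on the prior count, because 90d +P had no counts.

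Families for which a response to phosphate supply has been described in other plants, miR399 among them, had 13 members in the table, of which 9 were tested. miR827, miR2111, miR778, miR397 and miR408 had no member among the 22 miRNAs with an aqc name and were not analysed here. Of the 8 tested members other than aqc-miR399, 0 were called in any of the 6 comparisons, the interaction or the mean effect by edgeR. For 2 of them (aqc-miR166e and aqc-miR398a, both higher at 90d) the unadjusted p was under 0.05 in 1 comparison, that of the 2 +P groups. There 26.3% of all tested miRNAs had an unadjusted p under 0.05 in edgeR. DESeq2 on 12 libraries and the newer edgeR method also called those 2 there, among 31 and 19 calls over all 137 tested miRNAs. Both tools called 0 of the 8 elsewhere, and limma on log2(TPM + 1) called 0. At 90d the median log2 fold change of the 8 was -0.35, beside -0.44 for all tested miRNAs, and 2 of 8 were above 0. At 30d the median was -0.10, beside -0.15 for all, and 4 of 8 were above 0. The list was put together with earlier results known, so these values are a description. Of the 4 members with too few counts for a test, aqc-miR156b had 6, 5 and 8 counts in 30d -P, 4, 1 and 5 in 30d +P, 3, 0 and 3 in 90d -P, and 0 in 90d +P, while aqc-miR169a, aqc-miR169b and aqc-miR169c had at most 5 in a library. Over the 15 tested miRNAs with an aqc name other than aqc-miR399, edgeR likewise called 0 in each of these tests, and the median log2 fold change at 90d was -0.07.

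miR398, which represses copper/zinc superoxide dismutases, had the widest differences among them. aqc-miR398a had 183, 30.4 and 126 TPM in the 90d -P libraries but 296, 1562 and 52.9 TPM in those of 90d +P, so the groups overlapped and 90d +P replicate B stood far above the rest. Its log2 fold change was -2.75 (SE 1.37) at 90d, with an adjusted p of 0.488 in edgeR, and 1.10 (SE 1.31) at 30d. aqc-miR398b had values of -1.55 (SE 1.19) at 90d and 2.07 (SE 1.21) at 30d. aqc-miR395b, of a family that targets sulfate transporters and ATP sulfurylases, was at 1.12 (SE 1.11) at 90d and -0.94 (SE 1.10) at 30d. For miR166, which targets class III homeodomain-leucine zipper genes, the 3 members were within -0.49 and 0.42 on the log2 scale at both times. aqc-miR159, of a family that targets GAMYB-like genes, was at 0.16 (SE 0.94) at 90d, and aqc-miR319, of a family that targets TCP genes, at -0.44 (SE 0.74).

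**Figure D3:**
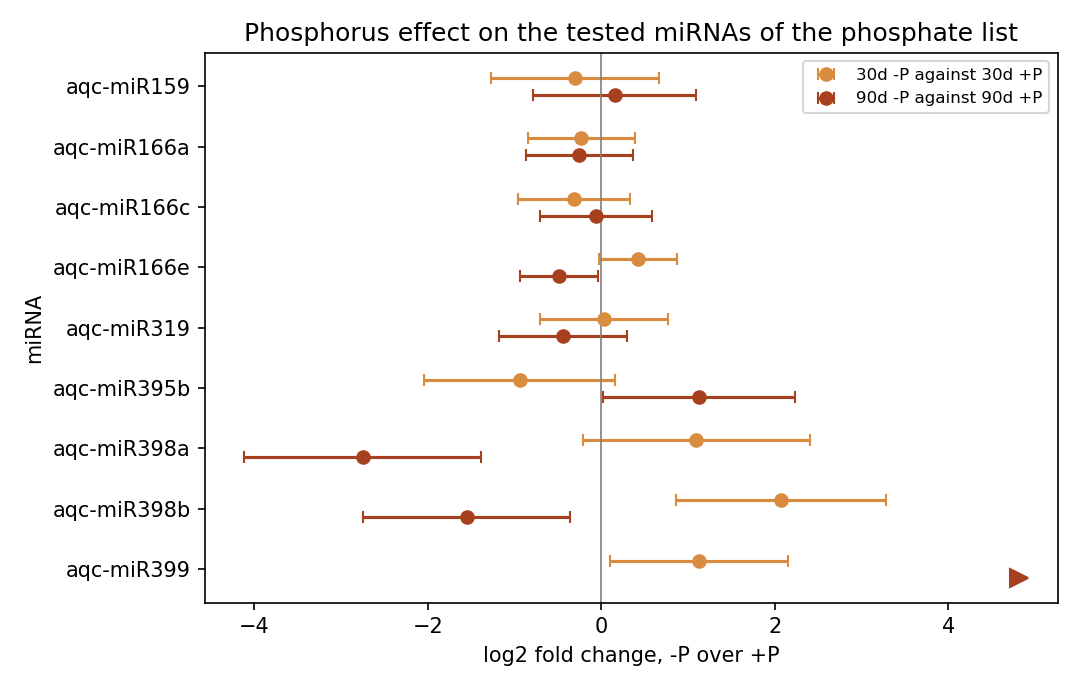
The log2 fold change of -P over +P for the 9 tested miRNAs of the list, at 30d and 90d, as points with SE bars from edgeR; the arrowhead for aqc-miR399 at 90d marks the pooled level over the limit of 3 counts, 28.1-fold. The points of the other 8 lie between -2.75 and 2.07, and aqc-miR399 at 90d lies to the right of all of them.

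The pattern of aqc-miR399 across libraries was then set against that of the 136 other tested miRNAs. Likeness was measured by Pearson r of log2(TPM + 1) and by Spearman rho over 12 libraries, with 100000 permutations of the libraries across all groups. These libraries share their totals and the 4 groups. A small permutation p therefore cannot tell likeness within groups from a shared difference between groups. r ranged from -0.609 to 0.899 with a median of 0.120. It was positive for 81 of 136, and 17 had an unadjusted p under 0.05, of which 2 remained under 0.05 when adjusted over 136.

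The 5 most alike were novel_61, novel_56, novel_73, novel_51 and novel_36, predicted miRNAs with no family name in the table. For novel_61, r was 0.899 and rho 0.887, with permutation p of 0.00012 and 0.00033 (adjusted 0.0129 and 0.0449). For novel_56, r was 0.866 and rho 0.859, with permutation p of 0.00019 and 0.00077 (adjusted 0.0129 and 0.0524). For novel_73, novel_51 and novel_36 r was 0.816, 0.771 and 0.731 and rho was 0.823, 0.711 and 0.655, with adjusted permutation p of 0.0725, 0.152 and 0.196 for r and 0.0825, 0.401 and 0.448 for rho. These 5 and aqc-miR399 were the 6 miRNAs called for the mean phosphorus effect in edgeR. Both measures came from the same libraries, so neither is independent support for the other.

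Other sets of libraries gave other values for these 5. With the 2 libraries farthest from the median level left out (replicates A and B of 90d +P, which tied with C), r was 0.820 for novel_61, 0.798 for novel_56, 0.710 for novel_73, 0.653 for novel_51 and 0.643 for novel_36. Over the 9 libraries outside 90d +P it was 0.773, 0.660, 0.522, 0.294 and 0.265, and only novel_61 was still among the 5 highest. Over the 6 libraries of 30d it was 0.655 and 0.809 for novel_61 and novel_56, and 0.288, 0.213 and -0.194 for the others. Deviations from the group means in those 9 libraries gave 0.571 for novel_61, 0.776 for novel_56, 0.125 for novel_73, 0.0714 for novel_51 and -0.359 for novel_36. Over all 136 miRNAs that measure ran from -0.935 to 0.943 with a median of 0.031, and 9 miRNAs were above novel_56 and 26 above novel_61, the highest being novel_38 (0.943) and aqc-miR160b (0.891), which were named after their values were seen. novel_61 and novel_56 had the highest r of the 5 in each of these. Over the 6 libraries of 90d, however, novel_56 (0.914) was below novel_61 (0.956), novel_73 (0.934) and novel_51 (0.920), and novel_36 had 0.907.

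In replicates A, B and C of 30d, novel_61 had 133, 359 and 111 TPM under -P and 52.2, 94.7 and 21.1 TPM under +P. At 90d it had 325, 151 and 339 TPM under -P and 4.99, 13.2 and 24.2 TPM under +P. Like aqc-miR399 it peaked in replicate B within 30d -P, and its -P libraries were above its +P libraries at both times. Such a peak was not particular to them, since novel_56, aqc-miR396a and aqc-miR171a also had it. By contrast, novel_73, novel_51 and novel_36 were lowest in that library of 30d -P. novel_56 had 776, 980 and 209 TPM under -P and 120, 371 and 97.5 TPM under +P at 30d, against 384, 392 and 515 TPM under -P and 8.32, 47.9 and 58.4 TPM under +P at 90d. Its mean was highest in 30d -P, whose libraries overlapped those of 90d -P.

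Of the 220 miRNAs, only novel_73 shared with aqc-miR399 a count of 0 in all 90d +P libraries and at least 1 count in each of the other 9. It had 44, 25 and 94 counts in 30d -P, 1, 21 and 3 in 30d +P, and 451, 16 and 306 in 90d -P. Its dip in 90d -P replicate B, at 12.1 TPM against 312 and 299 TPM, was not shared by aqc-miR399, whose counting intervals overlapped among those 3 libraries. Of the 26 miRNAs with 0 counts in all 90d +P libraries, 3 were tested, and the third was novel_125, with 35 counts in 5 libraries. For each of the other groups, 0 miRNAs were at 0 in all its libraries and read in all 9 others.

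**Figure D4:**
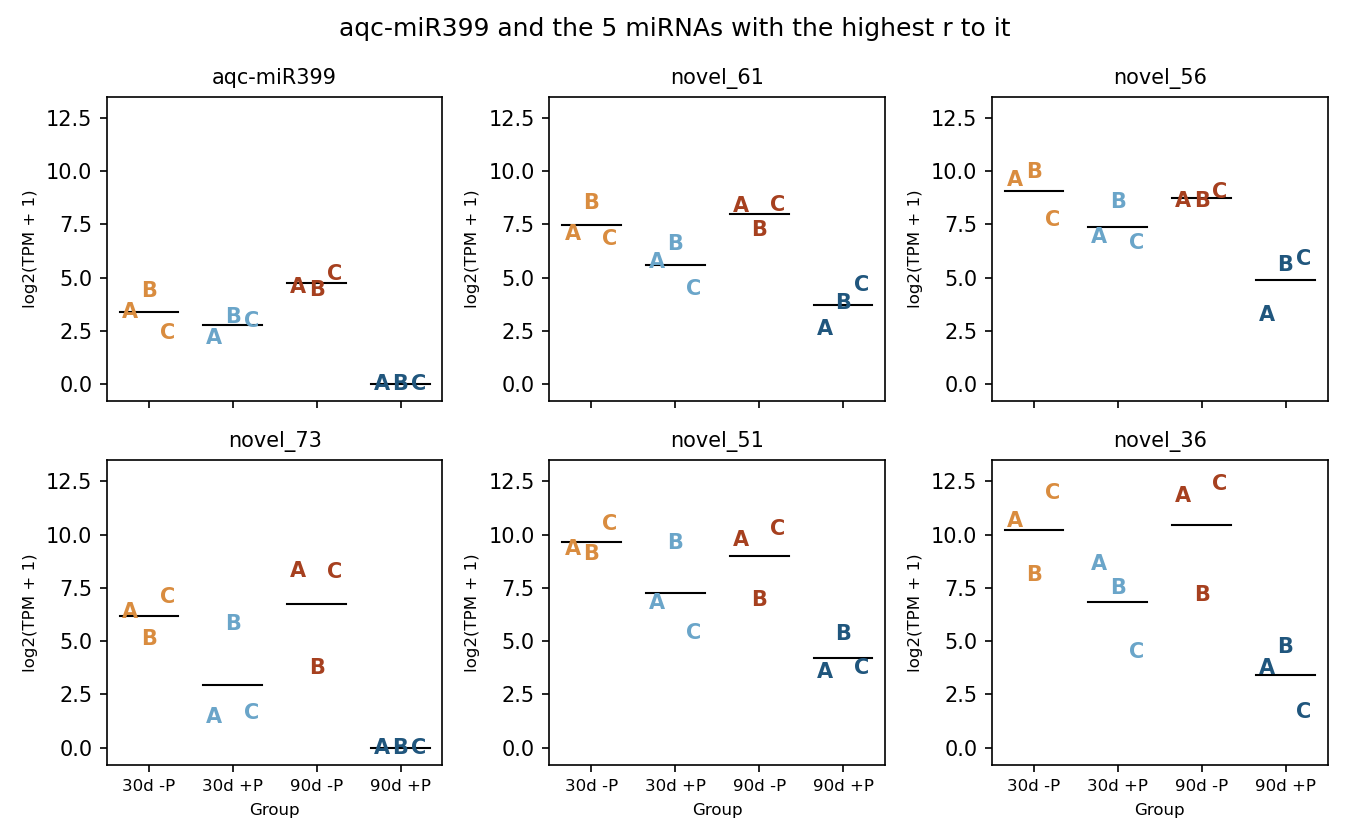
log2(TPM + 1) of aqc-miR399 and of the 5 miRNAs with the highest r to it, by group, with each library drawn as its replicate letter and a line at the group mean. All 6 miRNAs have their lowest group mean in 90d +P. In 90d +P all letters of aqc-miR399 and novel_73 lie at 0.

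The 3 least alike were novel_211, novel_105 and novel_245, with r of -0.609, -0.600 and -0.590 and rho of -0.416, -0.620 and -0.563. Their adjusted permutation p values for r were 0.353, 0.363 and 0.373. The mean of novel_211 was 23.1 ± 17.6 TPM (SD, n = 3) in 90d +P, and its means in the other groups lay between 4.56 and 8.35 TPM. Without replicates A and B of 90d +P the r values were -0.351, -0.248 and -0.248. Over the 6 libraries of 30d they were -0.778, -0.362 and -0.495, and for deviations from group means in the 9 libraries outside 90d +P they were -0.807, -0.559 and -0.318.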

How the data were processed

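Leaf small RNA was sequenced in 12 libraries, 3 for each of 4 groups, taken from the sample titles with their replicate letters. The study describes 3 biological replicates per sample for its RNA sequencing and the use of those samples for miRNAs. The labels do not tie a library to separate plants, so p-values measure the spread between these libraries. Per the labels, both adaptors were ligated before reverse transcription and PCR (NEBNext small RNA kit), and the submitters' processing notes name Bowtie and DESeq2 with no version. The authors removed adapter, low-quality, rRNA, tRNA, snRNA and repeat reads and predicted miRNAs with miREvo and mirdeep2. The sources used here name no genome build, mismatch rule or miRBase release.

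Read counts of 220 miRNAs were deposited by the authors, with TPM values deposited beside them that equal the count scaled to 1000000 counts of the library. Group means that the authors also deposited were not used. Every interval was computed from read counts alone, so it covers counting error only. Reads carry no molecular identifiers, so copies made by PCR could not be told apart from separate molecules.

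Counts were tested with edgeR 4.0.16 (glmQLFit, older quasi-likelihood method, TMM, all 12 libraries and 4 groups in 1 model, no covariate) in R 4.3.3, two-sided, after filterByExpr at a minimum count of 10, which kept 137 miRNAs (16 with an aqc name). p-values were adjusted over all of them by the Benjamini-Hochberg method, with a threshold of 0.05. The SE is the absolute log2 fold change over the square root of F. Against a group at 0, folds are set against 3 counts over the pooled total, beside the exact conditional 95% lower limit of the ratio. Alternatives used DESeq2 1.42.0, limma 3.58.1 on log2(TPM + 1) or with a pseudocount of 10, other scalings and filters, and fewer libraries. Permutation tests used scipy 1.17.1. The edgeR, DESeq2 and limma fits were tested on simulated data. The changed miRNAs there had less spread and more counts than aqc-miR399, so its case was not covered.

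aqc-miR399, the lists and the tests were chosen with earlier results of these data known. Named miRNAs were the 5 with the highest and 3 with the lowest r to it, the 2 above and 2 below it in mean level, up to 5 others called beside it, and the listed families. At 30d, same-letter libraries of -P and +P deviated together from their group means (r of 0.455, 0.236 and 0.211 for A, B and C). At 90d they did not (0.248, -0.267 and -0.159). The letters entered a fit only as a block, in an alternative. The main tests, the exact permutation tests included, did not use them.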

Additional observations from a re-analysis of the deposited data

Results flagged for a closer look

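aqc-miR399 is listed because the unadjusted test set its phosphorus effects at 90d and 30d apart. The fitted effects, 90d minus 30d, differed by 6.52 on the log2 scale, with a quasi-likelihood p in edgeR of 0.00387 before and 0.530 after adjustment over all tested miRNAs, so the difference did not pass the adjusted threshold. Groups of 3 libraries were too small for a test of single libraries as outliers.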

How the results depend on the processing

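Across 10 results and 217 alternatives no direction was reversed, and 197 alternatives stayed on the same side of the threshold. For pairs with 90d +P, which had no counts, a reversal was not possible. The 197 also include results that never passed the threshold, such as 24 of 24 for 30d -P against 30d +P and 26 of 26 for 90d -P against 30d -P. Every fitted log2 fold change that involves 90d +P depends on the tool and its prior count or pseudocount, because that group had no counts. For 90d -P against 90d +P it was 7.65 in edgeR, and 4.73 or 1.83 in limma with a pseudocount of 1 or 10. Significance was lost with the replicate block (7.84, adjusted p 0.0568) and with edgeR on 6 libraries (7.74, adjusted p 0.0963). Leaving out single libraries gave 7.43 to 7.73, and the call was kept in 7 of these 12 fits. For 30d -P against 90d +P (6.42) significance was lost with the newer edgeR method (6.32), the replicate block (6.32) and limma on log2(TPM + 10) (1.01). Leaving out single libraries gave 5.58 to 6.79 there, and the call was kept in 6 of 12 fits. For 90d +P against 30d +P (-5.30) DESeq2 on 12 libraries passed the threshold (-4.73, adjusted p 0.0186). The mean phosphorus effect (4.39) ranged from 3.89 to 4.48 without single libraries, where 11 of 12 fits kept the call. With the replicate block it was 4.42 (adjusted p 0.0418 in edgeR). The block changed no other call. The r of novel_61 with aqc-miR399 was 0.773 without the 90d +P group (adjusted permutation p 0.524) and 0.571 for deviations from group means, an alternative added after seeing the data. The cause of these changes was not tested.

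Calls over all miRNAs at 90d were 3, and 5 with RLE, TMMwsp, library totals or no filter, 8 with DESeq2 on 12 libraries, 11 with it on 6, 9 with the newer edgeR method, 6 with limma on log2(TPM + 1), and 0 with the replicate block or edgeR on 6 libraries. At 90d there were also 0 with the stricter filter. For 30d -P against 90d +P they were 5, against 8 with RLE or limma on log2(TPM + 1), 10 with the stricter filter, 14 or 8 with DESeq2 (12 or 6 libraries), 9 with the newer edgeR method, 3 with edgeR on 6 libraries and 0 with the block. Without single libraries they ranged from 0 to 5 at 90d, from 0 to 8 for 30d -P against 90d +P, and from 0 to 7 for the mean effect, which had 6. With library totals the median over all miRNAs shifted by 0.42 at 90d and -0.26 at 30d (log2). Relative to that median, aqc-miR399 lay between 1.21 and 1.30 at 30d and between 7.68 and 8.09 at 90d over 5 scalings. The 90d values again depend on the prior count. aqc-miR399 was not tested under the filter of 10 counts in 6 libraries or on the 6 libraries of the other comparisons that leave 90d -P out, and DESeq2 on the 6 libraries of 90d gave it no adjusted p. At 30d, with 2 to 15 counts per library, counting error limits what can be told.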
